A study of Mus musculus with 65 samples.

Results

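The 9 genes described here are Dlx1, Dlx2, Dlx5, Dlx6, Gsx1, Gsx2, Sp9, Gad1 and Gad2, a set of transcription factors and enzymes known from forebrain interneurons and their precursors. They were chosen by name, with earlier results of these data known, so shares of members called are a description. The Ensembl identifiers of the count table were matched to GENCODE symbols, and all 9 were found among its 31057 features. The cells were primary neural stem cells (NSCs) from the subventricular zone of adult iOSKM mice, a genotype that lets doxycycline switch on the reprogramming factors Oct4, Sox2, Klf4 and Myc. All 65 libraries, controls included, carry this genotype. The donors were 5 young animals, aged 3 to 4 months, and 4 old animals, aged 25 months, with females and males at each age. Each animal gave 1 library to every group of its age. In NSC medium, with the growth factors EGF and bFGF, there were untreated libraries at 18 h from young and old animals, doxycycline libraries at 18 h from both ages, and doxycycline libraries at 6 and 48 h from old animals only. In differentiation medium, which lacked these factors from 18 h after plating, there were untreated libraries at 6, 18 and 48 h from both ages and doxycycline libraries (2 µg per ml) at the same times from old animals only. The labels do not say from when the hours are counted in NSC medium, so equal hours in the 2 media may not be equal times after plating, which bears on every comparison between media. These are cultured primary cells of mixed state, so in each library fewer cells of a type and less RNA per cell cannot be told apart.

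The Dlx genes encode homeodomain transcription factors that lie in the genome as neighbouring pairs, and in the developing forebrain they drive precursors of the ganglionic eminences toward a GABA-releasing fate. Gsx1 and Gsx2 are homeodomain factors that act before them in ventral forebrain progenitors, and Sp9 is a zinc-finger factor of striatal and olfactory bulb interneurons. In the adult subventricular zone, Dlx2 is known from dividing intermediate progenitors and from the neuroblasts that travel to the olfactory bulb. Gad1 and Gad2 encode the 2 forms of glutamate decarboxylase, the enzyme that makes GABA, the main inhibitory transmitter.

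Dlx1 (GRCm38 chr2:71528113-71533981, plus strand) and Dlx2 (chr2:71543408-71546754, minus strand) face each other with 9426 bases between them. Dlx6 (chr6:6863334-6868568, plus strand) and Dlx5 (chr6:6877805-6882085, minus strand) do so with 9236 bases between them. Gad1 (chr2:70553072-70602014), Gad2 (chr2:22622205-22693874), Sp9 (chr2:73271925-73284706), Gsx1 (chr5:147188696-147190947) and Gsx2 (chr5:75075601-75077893) are all on the plus strand. RefSeq promoter windows (GRCm38.p6) matched 7 of the 9 genes. The 250 bases before the start were searched on both strands for TAATTA, a core recognised by many homeodomain factors, and for the E-boxes CAGCTG and CACGTG, recognised by basic helix-loop-helix factors. Over all 32851 promoters of this length the shares with a match were 4.84%, 13.0% and 6.02%. Only CACGTG was found, at 2 places before Dlx2 and at 1 place before Gsx2. The windows below belong to 3 genes that rose together at 18 h of differentiation, with matches in capitals; the Gad1 window is cut where an annotated exon begins. A match is a description of these letters and not a binding site.
Dlx2, chr2:71546755-71547004, minus strand: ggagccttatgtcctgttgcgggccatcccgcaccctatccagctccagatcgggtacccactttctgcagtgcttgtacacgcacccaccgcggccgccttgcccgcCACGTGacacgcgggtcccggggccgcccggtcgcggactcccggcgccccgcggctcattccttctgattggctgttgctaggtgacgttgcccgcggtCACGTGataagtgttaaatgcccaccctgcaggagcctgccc
Gsx1, chr5:147188446-147188695, plus strand: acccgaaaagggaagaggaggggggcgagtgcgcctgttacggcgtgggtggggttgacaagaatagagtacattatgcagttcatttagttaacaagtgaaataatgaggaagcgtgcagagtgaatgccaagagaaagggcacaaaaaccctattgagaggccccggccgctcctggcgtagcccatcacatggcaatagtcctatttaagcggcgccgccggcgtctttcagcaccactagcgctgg
Gad1, chr2:70561879-70562041, plus strand: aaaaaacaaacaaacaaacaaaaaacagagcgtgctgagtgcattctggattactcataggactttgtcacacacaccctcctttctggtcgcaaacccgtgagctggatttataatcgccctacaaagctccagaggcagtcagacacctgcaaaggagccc

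The libraries held 56483730 to 116835539 counts in total, with a median of 86693655. Pou5f1 (Oct4), whose row can also collect reads of the transgene, had 0.169 to 1.37 CPM (counts scaled to the size of the library) in the 29 doxycycline libraries and 0 to 0.356 CPM in the 36 untreated ones, with medians of 0.444 and 0.128 CPM. Within matched groups the doxycycline libraries were all above the untreated ones in young NSC (0.428 to 1.37 against 0.0634 to 0.356 CPM), at 6 h (0.243 to 0.379 against 0.0202 to 0.109 CPM) and at 18 h (0.169 to 0.376 against 0.0708 to 0.161 CPM) of differentiation. The ranges overlapped in old NSC at 18 h and at 48 h of differentiation. The cultures held neural stem cell markers (summed level over 7 genes, group medians 5468 to 8009 CPM) together with astrocyte and oligodendrocyte markers. Of 6 microglial genes Aif1, Cx3cr1 and C1qa averaged under 0.03 CPM and Tmem119 0.136 CPM, while P2ry12 averaged 1.16 CPM and Csf1r 6.88 CPM. Their summed level had group medians of 5.67 to 11.2 CPM. The name interneuron applies to the genes and not to the cells: Lhx6, Lhx8, Nkx2-1 and Isl1, factors of other interneuron lineages, averaged under 0.01 CPM, and Slc32a1, the transporter that loads GABA into vesicles, averaged 0.0312 CPM over all libraries.

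Levels are given below as CPM after TMM scaling, and differences as log2 fold changes with their standard error (SE) from edgeR's quasi-likelihood test; a gene was called changed at a Benjamini-Hochberg adjusted p under 0.05 over all genes tested. Gad1 was the most abundant of the 9, with a mean over the 65 libraries of 11.4 CPM, followed by Sp9 at 4.79 CPM, Dlx2 at 4.53 CPM, Gsx1 at 3.81 CPM, Dlx1 at 2.68 CPM and Gad2 at 0.669 CPM. Per kilobase of exonic bases, with all annotated exons of a gene merged, the order was different: Gsx1 came first at 2.15 CPM per kb, before Dlx2 at 1.59 and Gad1 at 1.49 CPM per kb. By this measure Dlx2 exceeded Dlx1 in every library, by a ratio of 1.45 to 6.60 (median 2.98), with lengths of 2855 and 5396 bases. Which transcripts were expressed was not tested, and shorter ones would change these per-kilobase values. These 6 genes had counts in all 65 libraries. Gsx2, Dlx5 and Dlx6 averaged 0.0596, 0.0196 and 0.00768 CPM and are described by their counts.

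**Figure D1:**
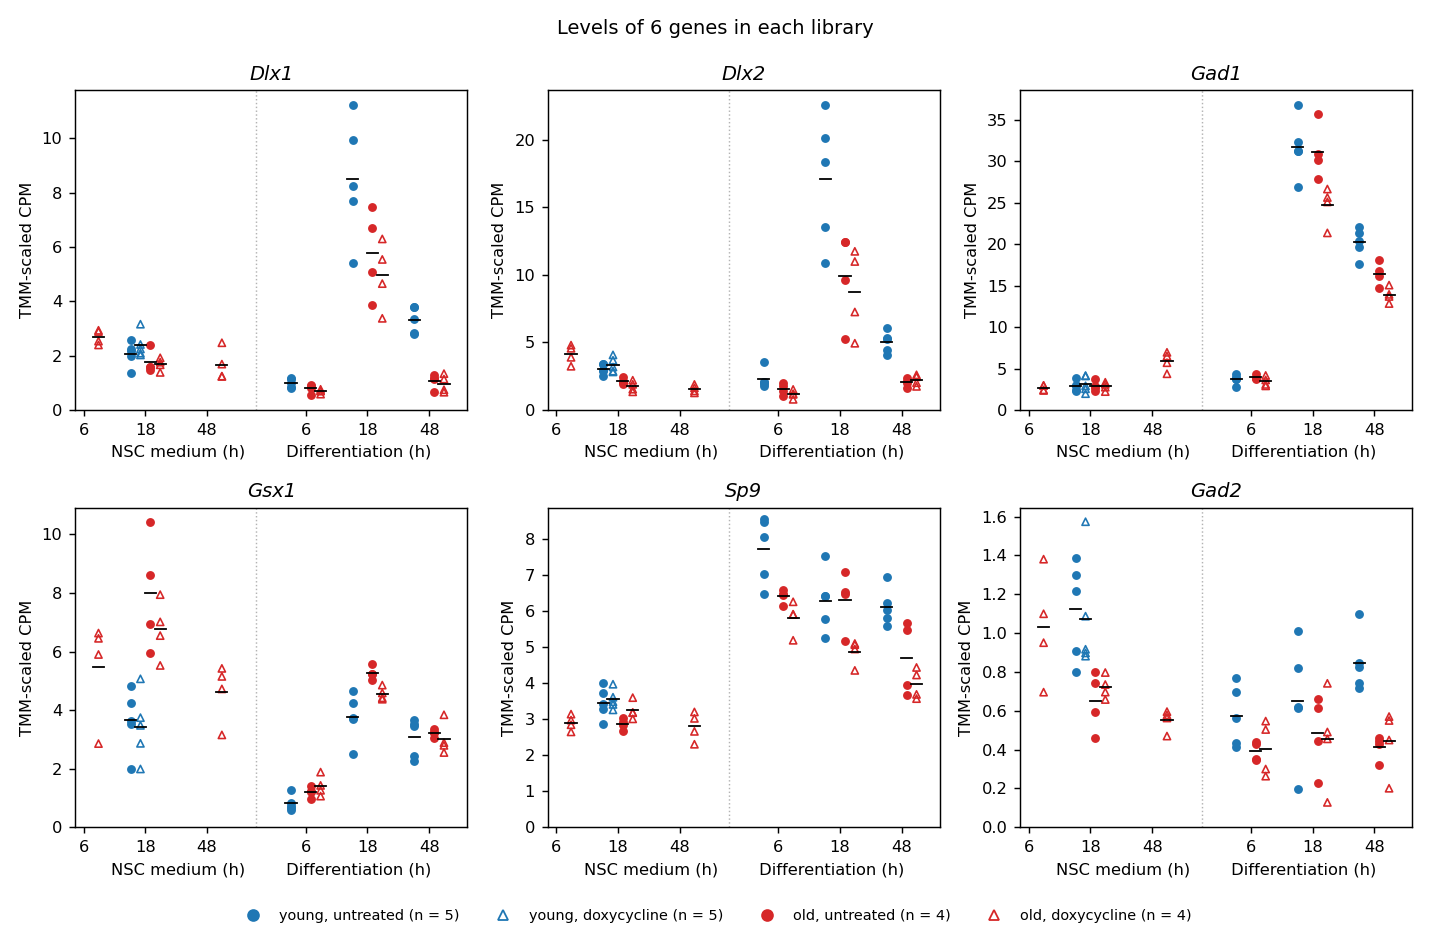
TMM-scaled CPM of 6 genes in each of the 65 libraries (y axis, linear from 0), by medium and hours (x axis); filled circles are untreated, open triangles doxycycline, blue young, red old, and black bars are group means. Dlx1, Dlx2 and Gad1 are highest at 18 h of differentiation, Gsx1 is lowest at 6 h, and at 48 h every untreated young library lies above every untreated old one for Dlx1, Dlx2 and Gad2.

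In the first 6 h of differentiation Gsx1, Dlx1 and Gad2 fell and Sp9 rose in both ages. Against untreated NSC at 18 h, 5 of 6 tested members were called in young cells and 6 of 6 in old cells, where 74.9% and 75.5% of all genes tested were called, so the counts follow the background and the sizes carry the description. Gsx1 was at 3.53, 4.81, 3.64, 2.01 and 4.25 CPM in young NSC animals 1 to 5 and at 0.669, 0.744, 0.834, 0.595 and 1.28 CPM at 6 h. In old animals 1 to 4 it went from 5.95, 8.63, 10.4 and 6.93 CPM to 0.979, 1.22, 1.4 and 1.24 CPM. No 6 h library reached the lowest NSC library of its age, and the log2 fold changes were -2.12 ± 0.25 (adjusted p = 5.05e-06) and -2.71 ± 0.18 (adjusted p = 1.1e-07).

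Sp9 moved the other way, by 1.17 ± 0.11 in young cells (mean 3.46 to 7.72 CPM) and 1.17 ± 0.08 in old cells (2.86 to 6.41 CPM), with no overlap between libraries. Dlx1 fell by 1.06 and 1.12 on the log2 scale in young and old cells (adjusted p = 7.44e-05 and 0.000375), again without overlap. Gad2 fell by 0.96 and 0.72 (adjusted p = 0.00137 and 0.0142). Dlx2 changed less than its neighbour: it fell by 0.46 ± 0.19 in old cells (adjusted p = 0.0442) and had a log2 fold change of -0.39 ± 0.17 in young cells, which missed the threshold (adjusted p = 0.0529). With animals as blocks the young value was -0.42 (adjusted p = 0.00924), which brings the young count to 6 of 6, against 77.4% of all genes in that fit. The old Dlx2 call was lost in 5 of 8 fits that left out 1 library (adjusted p up to 0.112): NSC animals 1, 2 and 4 and 6 h animals 1 and 3. Those fits did not pair the libraries of an animal, and with animals as blocks the old value was -0.49 ± 0.14 (adjusted p = 0.00634). Gad1 rose by 0.36 ± 0.15 in young cells (adjusted p = 0.0375), a call lost in 8 of 10 fits that left out 1 library (adjusted p up to 0.0969), all but those without NSC animal 4 or 6 h animal 3, and by 0.45 ± 0.13 in old cells (adjusted p = 0.00941). The young Gad1 value with animals as blocks was 0.36 ± 0.13 (adjusted p = 0.0267).

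Between 6 and 18 h of differentiation Dlx1, Dlx2, Gad1 and Gsx1 rose together in both ages. They were the members called higher, 4 of 7 tested in young and 4 of 6 in old cells; Sp9 was the other call in young cells, lower by 0.29 ± 0.10 (adjusted p = 0.0217). Of all genes tested, 66.5% and 67.7% were called. In young animals 1 to 5 Dlx2 was at 1.92, 2.10, 1.79, 3.54 and 2.10 CPM at 6 h and at 20.1, 13.5, 18.3, 22.5 and 10.8 CPM at 18 h. In old animals 1 to 4 it was at 1.42, 1.78, 1.02 and 2.02 CPM at 6 h and at 9.61, 12.4, 5.28 and 12.4 CPM at 18 h. Young animals 2 and 5 had the lowest 18 h levels of their group, and old animal 3 the lowest of its own, yet each was above every 6 h library of its age. The log2 fold changes of Dlx2 were 2.91 ± 0.25 (7.52-fold, adjusted p = 2.2e-06) and 2.69 ± 0.33 (6.47-fold, adjusted p = 0.000147).

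Dlx1 followed closely. Its young 18 h libraries were at 9.94, 7.70, 8.24, 11.2 and 5.42 CPM, against 0.824 to 1.18 CPM at 6 h, and its old ones at 5.07, 7.45, 3.85 and 6.68 CPM, against 0.570 to 0.922 CPM. This is a rise of 3.11 ± 0.19 in young and 2.86 ± 0.22 in old cells. Gad1, the enzyme gene, rose by 3.10 ± 0.11 and 3.00 ± 0.08, to the highest levels of any of the 9: 31.3, 31.3, 36.8, 32.3 and 26.9 CPM in young and 30.1, 35.7, 27.8 and 30.9 CPM in old animals. Gsx1 rose by 2.19 ± 0.21 to a mean of 3.76 CPM in young cells, where NSC had 3.65 CPM, and by 2.13 ± 0.12 to 5.27 CPM in old cells, where NSC had 7.98 CPM. Gad2, which makes the same product as Gad1, was not called: its log2 fold changes were 0.18 ± 0.34 and 0.33 ± 0.31 (adjusted p = 0.666 and 0.371), and its libraries ran from 0.195 to 1.01 CPM within the young 18 h group.

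Dlx1 lies on the opposite strand of the non-coding gene Dlx1as, and their exons share 335 bases. The library kit keeps strand, but the strand setting of the counting is not given in the sources used here, so reads of the shared bases cannot be assigned with certainty. Dlx1as rose at 18 h too, by 1.61 ± 0.18 in young cells (0.953 to 2.88 CPM) and 1.23 ± 0.17 in old cells. At 6 h, when Dlx1 fell, the Dlx1as values were -0.04 and 0.08 (adjusted p = 0.888 and 0.721).

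From 18 to 48 h Dlx1, Dlx2 and Gad1 all fell. In young cells 4 of 7 tested members were called, all lower, and in old cells 5 of 6, all lower, with 56.9% and 56.5% of all genes called. Dlx1 fell by 1.38 ± 0.17 in young and 2.46 ± 0.25 in old cells, and Dlx2 by 1.78 ± 0.20 and 2.31 ± 0.28. Gad1 fell by 0.67 ± 0.08 and 0.94 ± 0.08 (adjusted p = 1.13e-05 and 5.63e-07), to 20.2 ± 1.70 (SD, n = 5) and 16.4 ± 1.39 CPM (SD, n = 4). The remaining calls were Gsx2 in young cells, described with the low genes below, and Gsx1 (-0.74 ± 0.08) and Sp9 (-0.45 ± 0.15, adjusted p = 0.0231) in old cells. Gsx2 passed the low-count filter mainly through the 18 h libraries, where it is high, so its call supports nothing. In young cells the Gsx1 value was -0.31 ± 0.17 (adjusted p = 0.141), or -0.32 (adjusted p = 0.0175) with animals as blocks, a fit in which 62.6% of all genes were called and 5 of 7 members were called lower, Gsx2 among them. The Sp9 call in old cells was lost in 5 of 8 fits that left out 1 library (adjusted p up to 0.0706): 18 h animals 1, 2 and 3 and 48 h animals 2 and 3. The Sp9 call at 18 h in young cells was lost in 3 of 10 (adjusted p up to 0.0571): 6 h animal 2 and 18 h animals 1 and 3. In fits with animals as blocks and all libraries, these old and young Sp9 values were -0.45 ± 0.16 (adjusted p = 0.0382) and -0.29 ± 0.07 (adjusted p = 0.00346).

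**Figure D2:**
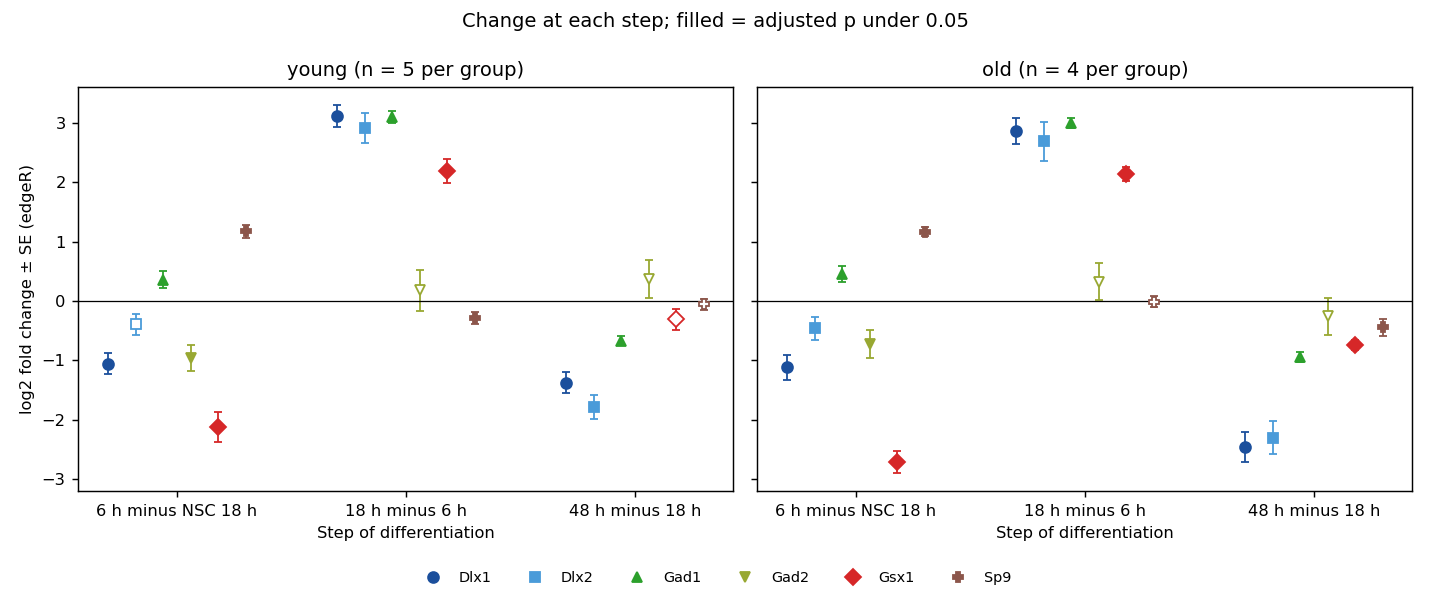
log2 fold change ± SE (y axis) of 6 genes at each step from NSC medium through 48 h of differentiation (x axis), young left and old right; filled symbols were called at an adjusted p under 0.05. Dlx1, Dlx2, Gad1 and Gsx1 sit between 2.13 and 3.11 at the middle step in both ages, and Dlx1 and Dlx2 between -1.38 and -2.46 at the last.

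Measured over the whole 48 h against NSC, the 2 Dlx genes ended higher in young cells and did not in old cells. Young cells had 4 of 6 tested members called, all higher (background 83%): Dlx1 by 0.70 ± 0.16, Dlx2 by 0.76 ± 0.12, Sp9 by 0.86 ± 0.10 and Gad1 by 2.82 ± 0.12, a 7.05-fold rise. Old cells had 5 of 6 called (background 82.3%), Gad1 (2.54 ± 0.13) and Sp9 (0.75 ± 0.14) higher and Dlx1 (-0.67 ± 0.23, adjusted p = 0.0165), Gad2 (-0.61 ± 0.24, adjusted p = 0.0319) and Gsx1 (-1.27 ± 0.15) lower. Dlx2 was at 2.17, 2.04, 1.92 and 2.46 CPM in old NSC and averaged 2.05 ± 0.326 CPM (SD, n = 4) at 48 h, a difference of -0.03 ± 0.14. The old Dlx1 call was lost without NSC animal 4 (-0.49, adjusted p = 0.0616), whose 2.39 CPM stood above 1.47 to 1.57 CPM in the other animals. The Gad2 call was lost without NSC animal 1 or 4 or 48 h animal 2 or 3 (adjusted p 0.0527 to 0.0950), and leaving out NSC animal 4 therefore left 3 calls. These fits did not pair the libraries of an animal. In the fit with animals as blocks and all libraries, Dlx1 was called at -0.68 ± 0.18 (adjusted p = 0.00574) and Gad2 at -0.60 ± 0.25 (adjusted p = 0.0453).

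Dlx5, Dlx6 and Gsx2 were at or near 0 counts in most libraries; because both mates of a read pair were usually counted, 2 counts are mostly 1 fragment. A count of 0 allows a level of up to about 3 fragments, which is more than 3 counts where both mates were counted. Dlx5 was at 0 in 50 of 65 libraries. It had 24, 15, 20, 17 and 5 counts in young animals 1 to 5 at 48 h of differentiation, 2, 0, 0 and 10 counts in old animals 1 to 4 at that time, and at most 4 counts in any library of the other groups. Dlx6, its neighbour, was at 0 in 51 libraries and had 2, 8, 3, 7 and 2 counts in young cells at 48 h, 0 in all 4 untreated old libraries at that time and at most 6 elsewhere. So the only group in which every library held both genes was young differentiation at 48 h, at counts too small for most fits: Dlx5 passed the low-count filter in 3 of 28 fits and Dlx6 in none. Dlx6os1, the antisense gene beside them with which neither shares an exonic base, had 95 counts summed over that group and 16 over its old counterpart, and, having passed the filter through the young libraries, is given by these counts alone.

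Gsx2 had its highest counts in differentiation medium. It was at 0 counts in all 8 old NSC libraries at 18 h, and at 0 to 8 counts in the 10 young ones. At 18 h of differentiation it had 19, 18, 12, 32 and 10 counts in young animals 1 to 5 and 6, 4, 2 and 4 counts in old animals 1 to 4, so the ages did not overlap. At 48 h it had 6, 6, 6, 8 and 14 counts in young cells. Against 18 h it was called lower there, a call lost without 18 h animal 4. In that fit it passed the low-count filter mainly through the 18 h libraries, where it is high, so the call supports nothing and no fold or test is given. Run without the low-count filter, the fits called Dlx5 in 4 further comparisons, Dlx6 in 3 and Gsx2 in 4. Among them all 3 genes were called higher at 48 h against NSC in young cells, which makes 7 members called there. Untreated young NSC libraries held only 2, 1 and 8 counts in total of Dlx5, Dlx6 and Gsx2. These calls of genes near 0 counts support nothing, and no test is given for them.

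**Figure D3:**
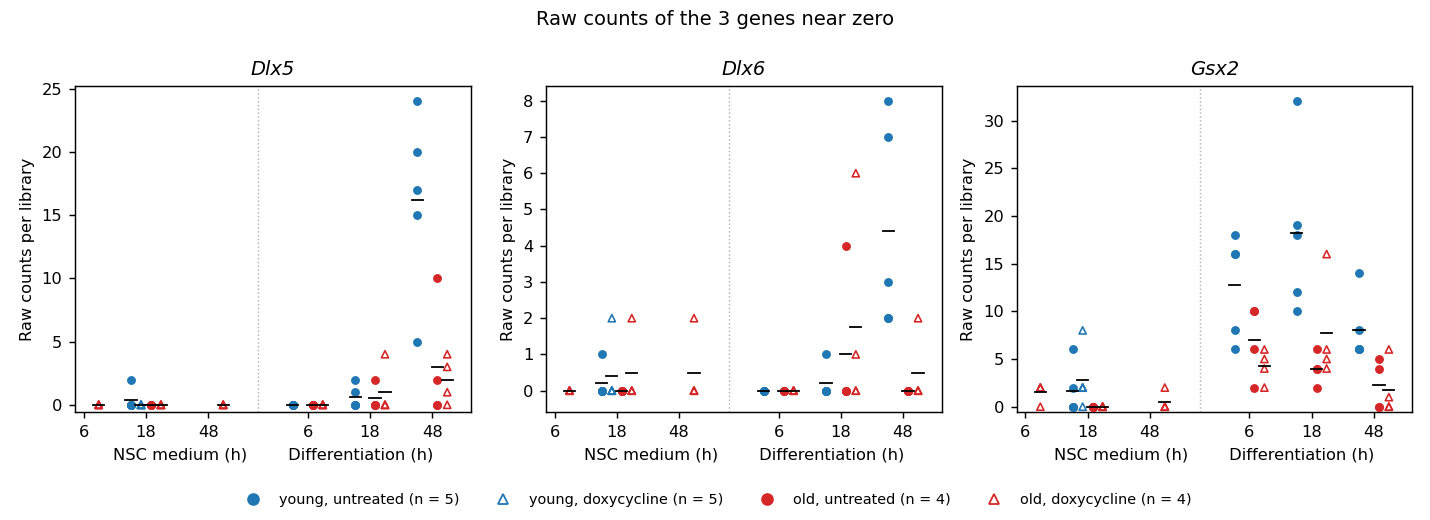
Raw counts per library (y axis) of Dlx5, Dlx6 and Gsx2 by medium and hours (x axis); symbols as in the plot of levels, black bars are group means. Dlx5 reaches 24 counts and Dlx6 8 counts, both in untreated young cells at 48 h of differentiation, and Gsx2 reaches 32 counts in young cells at 18 h.

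The age comparison with the most calls was 48 h of differentiation, where Dlx1, Dlx2, Gad2 and Gad1 were all lower in old cells. These were 4 of 7 tested members, against 10.6% of all genes. Dlx1 was at 3.78, 3.34, 2.84, 3.80 and 2.81 CPM in young animals 1 to 5 and at 1.19, 1.13, 0.654 and 1.30 CPM in old animals 1 to 4. Dlx2 was at 5.36, 4.04, 6.09, 5.27 and 4.42 CPM in young animals, and at 2.03, 2.40, 1.62 and 2.16 CPM in old animals. Every young library was above every old one for both genes, with log2 fold changes of -1.63 ± 0.19 and -1.29 ± 0.14 (adjusted p = 0.00117 for each). Leaving out any 1 library kept them between -1.74 and -1.45 and between -1.38 and -1.20, all called.

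Gad2 was at 0.741, 0.718, 0.845, 0.827 and 1.10 CPM in young and at 0.443, 0.431, 0.321 and 0.458 CPM in old cells at 48 h (-1.02 ± 0.20, adjusted p = 0.0105). The 2 ages did not overlap. Gad1, made in far larger amounts, differed by -0.30 ± 0.07 (adjusted p = 0.0245), with overlapping libraries and a call lost without old animal 2, 3 or 4 or young animal 1 (adjusted p 0.0567 to 0.0744). Dlx5 entered this fit through the young libraries, where it is high, and 3 of 4 old libraries were at or under 3 counts, so its counts above are given as a description, with no fold or test.

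Fewer members were called between ages at the other times. In NSC medium at 18 h 2 of 6 tested members were called (background 5.95%): Dlx2 lower in old cells (-0.51 ± 0.12, adjusted p = 0.0297; 3.03 to 2.15 CPM) and Gsx1 higher (1.12 ± 0.24, adjusted p = 0.0272; 3.65 to 7.98 CPM), both without overlap between ages. The Dlx2 call was lost without old animal 1, 2 or 3 or young animal 1, 3 or 4 (adjusted p up to 0.0961), and the Gsx1 call without old animal 2, 3 or 4 or young animal 1 or 3 (adjusted p up to 0.0735); the values stayed between -0.58 and -0.45 and between 0.97 and 1.24. Gad2 had -0.80 ± 0.22 (adjusted p = 0.0545), and 0.049 with sex as a covariate. At 6 h of differentiation edgeR called 0 of 7 (background 1.43%), and DESeq2 called 0, although it called 738 genes; 4 members were under an unadjusted p of 0.05, as were 13.9% of all genes. The Dlx2 value was -0.56 ± 0.24 (adjusted p = 0.314).

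At 18 h of differentiation 2 of 7 tested members were called (background 5.19%), Gsx1 higher in old cells (0.50 ± 0.14, adjusted p = 0.0464) and Gsx2 lower (adjusted p = 0.019). Gsx2 passed the low-count filter here only through the young libraries, where it is high, so its call supports nothing; of the other 6 members tested, 1 was called. Dlx1 and Dlx2, near their peak, had -0.54 ± 0.24 and -0.76 ± 0.31 (adjusted p = 0.25 and 0.22), with overlapping libraries. Gad1 had -0.01 ± 0.09 (adjusted p = 0.971). The Gsx1 call was lost in 7 of 9 fits that left out 1 library (adjusted p up to 0.141), all but those without young animal 2 or 5, and with sex as a covariate (adjusted p = 0.0614). The Gsx2 call was lost without old animal 3 or 4 (adjusted p up to 0.0741), and DESeq2 gave it no adjusted p.

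**Figure D4:**
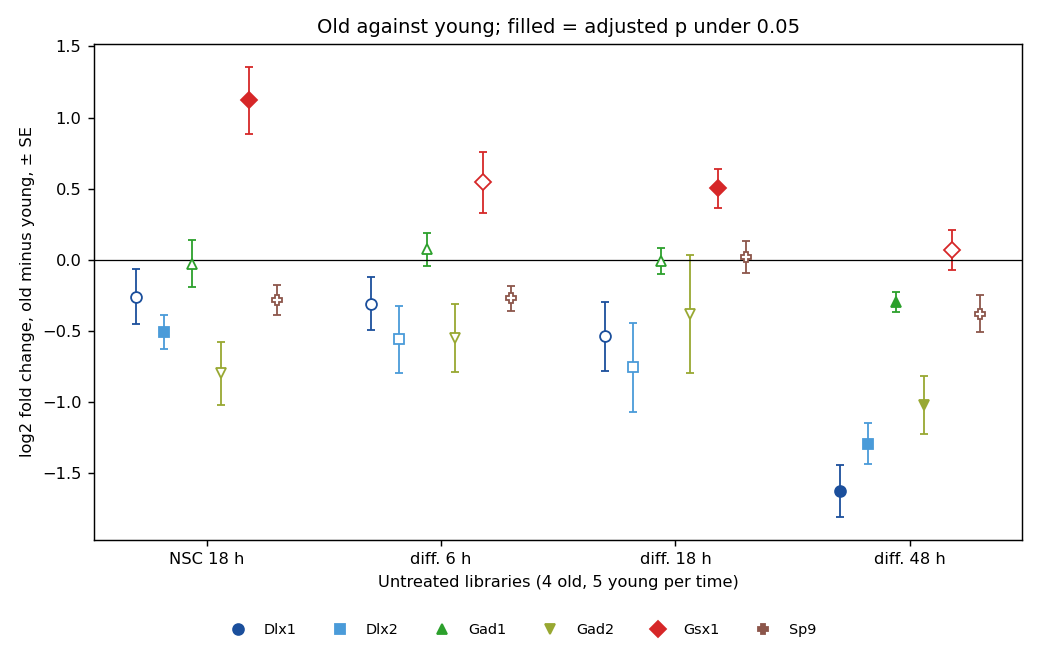
log2 fold change of old against young untreated cells ± SE (y axis) for 6 genes in NSC medium at 18 h and at 6, 18 and 48 h of differentiation (x axis); filled symbols were called at an adjusted p under 0.05. At 48 h Dlx1 (-1.63), Dlx2 (-1.29), Gad2 (-1.02) and Gad1 (-0.30) lie below 0 and are called.

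Whether a step of differentiation differed between ages was tested as an interaction. For 48 h against NSC 2 of 7 tested members were called (background 3.85%): the change of Dlx1 was lower in old cells by 1.37 ± 0.28 on the log2 scale (adjusted p = 0.0131), and that of Dlx2 was lower by 0.79 ± 0.19 (adjusted p = 0.0265). The Dlx1 value stayed called without any 1 library (-1.49 to -1.19). The Dlx2 call was lost without old NSC animal 4, old 48 h animal 3 or young 48 h animal 1 (-0.72, -0.69 and -0.77, with adjusted p up to 0.0599). Its value with animals as blocks and all libraries was -0.80 ± 0.17 (adjusted p = 0.0261). Gsx1 had -1.06 ± 0.30 (adjusted p = 0.0522), and with animals as blocks -1.05 (adjusted p = 0.0191), which makes 3 of 7 against 4.05% of all genes. For 48 h against 18 h 0 of 8 members were called, and 0% of all genes were (edgeR; 6.92% of genes and 3 members under an unadjusted p of 0.05, and 47 genes and 0 members by DESeq2). With animals as blocks Dlx1 was called there, at -1.08 ± 0.15 (adjusted p = 0.00532), against 0.334% of all genes; without blocks it was -1.07 ± 0.32 (adjusted p = 0.456). For 6 h against NSC and for 18 h against 6 h, 0 of 7 members were called by edgeR, by DESeq2 or at an unadjusted p under 0.05, with 0.0454% and 0% of all genes called (for the latter, 5.45% of genes under an unadjusted p of 0.05 and 1 gene by DESeq2).

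Other genes moved with age at 48 h as well, where 10.6% of all genes tested were called, and the counts below stand beside that share. Of 20 further interneuron transcription factors 14 were tested, and 3 were lower in old cells, among them Meis2 (-0.21 ± 0.04, adjusted p = 0.0078) and Pax6 (-0.23 ± 0.05, adjusted p = 0.0183). Their median was -0.09, against 0.00 over all genes tested. Of 6 genes for GABA transport and breakdown 5 were tested and 3 were lower, among them the transporter Slc6a11 (-0.53 ± 0.12) and the transaminase Abat (-0.27 ± 0.06). Slc32a1, 1 of the 5 tested, had 72 counts summed over 5 young libraries and 20 over 4 old ones. It passed the low-count filter mainly through the young libraries, where it is high, and is given by these counts alone. Markers of other cells moved too: of 9 oligodendrocyte lineage genes Gpr17 was higher (0.89 ± 0.20) and Pdgfra lower (-0.48 ± 0.07) in old cells, the list's summed level being 3889 to 5119 CPM in young and 5505 to 6578 CPM in old libraries. Of 8 neuroblast and young neuron genes 7 were tested: Dcx (0.33 ± 0.08) and Elavl4 (0.34 ± 0.08) were higher and Cd24a lower (-0.40 ± 0.10), with summed levels of 430.9 to 543 CPM in young and 491 to 524 CPM in old libraries. Summed neural stem cell markers were at 7245 to 8532 CPM in young and 6157 to 6890 CPM in old libraries. The part of these cell markers in the Dlx and Gad differences was not tested.

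edgeR called no member with doxycycline in the fits without blocks. In 5 matched comparisons 0 of 6 tested members were called by edgeR, with 0.018% (old NSC), 0.0361% (young NSC), 0.0294%, 0.0118% and 0.0296% (old differentiation at 6, 18 and 48 h) of all genes called. The 30 log2 fold changes lay between -0.41 and 0.22 (adjusted p 0.374 to 0.995). At an unadjusted p under 0.05 there were 0 members in the 2 NSC comparisons and at 6 h, 3 at 18 h and 1 at 48 h, where 6.69% and 8.83% of all genes were under it. DESeq2 called 44 genes at 18 h, among them 1 member, Gad1 (adjusted p = 0.0422).

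Gad1 was called once the libraries of an animal were paired. At 18 h of differentiation it was at 30.1, 35.7, 27.8 and 30.9 CPM in untreated old animals 1 to 4 and at 21.4, 26.6, 25.6 and 25.1 CPM with doxycycline, so the groups did not overlap and all 4 animals were lower with doxycycline. With animals as blocks the difference was -0.34 ± 0.06 (adjusted p = 0.0201), against 0.883% of all genes called. At 48 h it was at 18.0, 16.7, 16.2 and 14.7 CPM untreated and at 15.1, 12.8, 13.7 and 13.9 CPM with doxycycline, again lower in 4 of 4 animals (-0.25 ± 0.06, adjusted p = 0.0198, background 4.15%). Without blocks the adjusted p-values were 0.58 and 0.374. At 6 h the blocked value was -0.20 ± 0.10 (adjusted p = 0.304). At 18 h Sp9, at 4.87 CPM with doxycycline against 6.32 CPM, was called neither without blocks (-0.38 ± 0.10, adjusted p = 0.58) nor with them (adjusted p = 0.117). The same held for Gsx1, at 4.56 against 5.27 CPM (-0.22 ± 0.08, adjusted p = 0.714 without blocks and 0.222 with them).

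The interactions with doxycycline gave no call in edgeR with all libraries. For age with doxycycline in NSC medium edgeR called 0 of 6 members, and 0 at an unadjusted p under 0.05, with 0% of all genes called (8.83% at an unadjusted p under 0.05, and 3 genes by DESeq2). For medium with doxycycline in old cells at 18 h it called 0 of 6 (0.00566% of all genes). Sp9 (-0.56 ± 0.14, adjusted p = 0.203) was the 1 member under an unadjusted p of 0.05, as were 1768 of 17657 genes. DESeq2 called 120 genes there, Sp9 among them, and Sp9 was also called by edgeR without old differentiation animal 4 (-0.65, adjusted p = 0.0326).

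Within doxycycline-treated old cells in NSC medium, Dlx2 and Dlx1 fell from 6 to 18 h and Gad1 rose by 48 h. From 6 to 18 h 2 of 6 members were called (background 61.3%). Dlx2 went from 4.56, 3.24, 3.9 and 4.8 CPM to 1.90, 1.54, 1.35 and 2.20 CPM in animals 1 to 4 (-1.21 ± 0.17, adjusted p = 0.000137), and Dlx1 fell by 0.65 ± 0.13 (adjusted p = 0.00126). With animals as blocks Gad2 (-0.46 ± 0.19, adjusted p = 0.0463) and Gsx1 (0.36 ± 0.13, adjusted p = 0.0364) were called too, 4 of 6 against 67.9% of all genes. From 18 to 48 h 2 of 6 were called (background 52.3%): Gad1 was higher by 1.05 ± 0.16 (2.86 to 5.89 CPM) and Gsx1 lower by 0.54 ± 0.17 (adjusted p = 0.0202), the latter lost without 18 h animal 3 (-0.46, adjusted p = 0.0547). This Gsx1 value with animals as blocks was -0.55 ± 0.09 (adjusted p = 0.000132). These are times in culture with doxycycline present, and untreated NSC libraries at 6 and 48 h were not analysed here, so time and doxycycline cannot be told apart.

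At equal labelled hours in doxycycline-treated old cells, differentiation medium had lower Dlx genes at 6 h and higher ones at 18 h than NSC medium. At 6 h 6 of 6 members were called (background 80.7%): Dlx1 (-1.94 ± 0.14), Gsx1 (-1.93 ± 0.27), Dlx2 (-1.79 ± 0.19) and Gad2 (-1.32 ± 0.29) were lower, and Sp9 (1.03 ± 0.09) and Gad1 (0.39 ± 0.14, adjusted p = 0.0215) higher. At 18 h 5 of 6 were called (background 81.5%), with Gad1 (3.14 ± 0.12), Dlx2 (2.35 ± 0.30), Dlx1 (1.59 ± 0.18) and Sp9 (0.62 ± 0.10) higher and Gsx1 lower (-0.53 ± 0.10). Gad2 joined them with animals as blocks (-0.73 ± 0.32, adjusted p = 0.0485), 6 of 6 against 82% of all genes. At 48 h 5 of 6 were called (background 76.9%): Gad1 (1.27 ± 0.13), Dlx2 (0.54 ± 0.16) and Sp9 (0.54 ± 0.12) were higher, and Dlx1 (-0.74 ± 0.28, adjusted p = 0.0298) and Gsx1 (-0.58 ± 0.17) lower. The Dlx1 call at 48 h was lost without NSC animal 2 or 4 or differentiation animal 3 or 4 (adjusted p up to 0.101), and the Gad1 call at 6 h without NSC animal 2 or 4 or differentiation animal 2 or 3 (adjusted p up to 0.0748). Fits with animals as blocks and all libraries gave -0.73 ± 0.27 (adjusted p = 0.0313) for this Dlx1 value and 0.39 ± 0.13 (adjusted p = 0.0184) for this Gad1 value.

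Of the other pathway genes, those for removing GABA rose in the 18 h step: 4 of the 6 genes for transport and breakdown were tested and all 4 rose in both ages, where 66.5% and 67.7% of all genes were called in either direction, by a median of 0.50 in young and 0.38 in old cells. Slc6a11, a GABA transporter of astrocytes, went from 629 to 2054 CPM in young cells (1.72 ± 0.10), and Abat and Aldh5a1 rose by 0.38 and 0.61. Summed astrocyte markers (6 genes) were at 1903 to 2211 CPM in young libraries at 6 h and at 2873 to 3519 CPM at 18 h, and their part in these changes was not tested. Of the other interneuron transcription factors 15 were tested at this step in young cells, with 7 higher and 1 lower, a smaller share than that of all genes: among the most abundant, Etv1 fell (-0.73 ± 0.04), and Zeb2 and Meis2 were not called. At the 6 h step 8 of 16 rose and 4 fell in young cells (background 74.9%), Etv1 (0.71 ± 0.04) and Zeb2 (0.77 ± 0.09) among the former and Meis2 (-0.16 ± 0.05) among the latter.

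The features whose levels followed each member most closely were found by Pearson's r of log2(CPM + 0.5) over the 65 libraries, among 14145 features with a mean of at least 1 CPM; the libraries share animals, so r is a description. For Dlx1 the first was Dlx2 (r = 0.94), then Relb (0.84), Dlx1as (0.81), Klhdc8a (0.80) and Cacna1b (0.79). For Dlx2 they included Dlx1, Dlx1as (0.86), Relb (0.85) and Tbc1d10a (0.82). Gad1 was followed most closely by Helt (0.98), N4bp2l1 (0.97), Tmem121b (0.96), Cox8b (0.96) and Zfp964 (0.96), Gsx1 by Rhbdf1 (0.88), Gnaq (0.87), Uvrag (0.86), Lgalsl (0.86) and Zbtb2 (0.86), and Sp9 by Gpbp1l1 (0.92), Fzd6 (0.91), Vwa5a (0.91), Cir1 (0.90) and Carhsp1 (0.90).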

How the data were processed

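RNA from 65 mouse cultures was sequenced after poly(A) selection with a stranded kit, as paired reads, per the labels' protocols. The authors deposited whole-number read counts per gene; the tools listed, per the submitters' processing notes, are STAR 2.7.10b, Subread, Trim Galore 0.6.6, DESeq2 1.40.1 and SAMtools, with the build mm10 and no strand setting. Values of 2 (75644) outnumbered values of 1 (19963), so both mates were usually counted. A deposited table of transformed log2 values was not used. Of 31057 features 30934 were named by GENCODE M21.

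Counts were fitted with edgeR 4.0.16 (R 4.3.3; TMM, filterByExpr with minimum count 10, robust quasi-likelihood test, Benjamini-Hochberg) on the groups compared alone, in 22 comparisons and 6 interactions of 16621 to 17797 genes, after a test on simulated data. DESeq2 1.42.0, RLE scaling, no filter, halved counts, a replicate block, sex as a covariate and leaving out each library were alternatives. Same-numbered libraries of an age come from 1 animal, per the labels. Their deviations from group means correlated over 10426 genes (group-pair medians 0.48 to 0.83, lowest single pair 0.27). For different animals the highest group-pair median was -0.23. Deviations cancel within a group, which pulls values for different animals negative, so these are no separate support for the pairing. Sex was not a term in the age comparisons otherwise. The members and lists were chosen with earlier results of these data known; of other lists, the 4 most abundant genes and those called between ages were eligible to be named, and others are named where a count is described. Some genes that this rule names are not reported here.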

Additional observations from a re-analysis of the deposited data

Results flagged for a closer look

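In groups of 4 or 5 libraries, 7 of 108 groups examined held a library standing apart from the others by Dixon's criterion, which chance gives in about 1 of 20 groups; 27 groups with at most 3 counts were left out. Dlx1 was at 2.39 CPM in old untreated NSC animal 4, against 1.47 to 1.57 CPM in the other animals. Dlx2 was at 3.54 CPM in young animal 4 at 6 h of differentiation, against 1.79 to 2.10 CPM. The others were low-count values. Dlx5 was at 0.0427 CPM in old doxycycline animal 4 and Dlx6 at 0.0536 CPM in old untreated animal 1, both at 18 h of differentiation, against 0 in the other animals of each group. Gsx2 was at 0.101 CPM in young NSC doxycycline animal 5 (others 0 to 0.0259 CPM), at 0.195 CPM in young animal 5 at 48 h of differentiation (others 0.0627 to 0.0973 CPM) and at 0.0744 CPM in old doxycycline animal 1 at 48 h (others 0 to 0.0121 CPM).

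The change from NSC to 48 h of differentiation differed between ages for Dlx1 (interaction -1.37 on the log2 scale) and Dlx2 (-0.79), in edgeR's quasi-likelihood test.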

How the results depend on the processing

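Among single-gene values recomputed under alternatives for members called at least once, 1073 kept their direction and side of the threshold, 66 lost the call, 40 gained it and none reversed. Of 95 values never called, 34 changed sign under at least 1 alternative. The counts of members called moved by over 1.5 times as follows, and the cause was not tested. Without the low-count filter, 7 were called in young cells at 48 h against NSC, Dlx5, Dlx6 and Gsx2 being added because they were then tested. Being near 0 counts in NSC, their calls support nothing. For old against young at 18 h of differentiation, 1 was called by DESeq2, with halved counts and with sex as a covariate. DESeq2 called 1 for doxycycline at 18 h of differentiation and 1 for the interaction of medium with doxycycline. The replicate block gave 1 call for doxycycline at 18 h and 1 at 48 h of differentiation, 4 from 6 to 18 h in old NSC with doxycycline and 1 for the interaction of age with 48 against 18 h; the other blocked calls that changed stand in the report, and it changed no other member's call there. Leaving out 1 library gave 3 to 5 calls for old 48 h against NSC, 0 to 3 for age in NSC, 0 to 2 for age at 18 h, 1 to 2 from 18 to 48 h in old NSC with doxycycline, 1 to 3 for the interaction of age with 48 h against NSC and 0 to 1 for that of medium with doxycycline. Depth limits Dlx5, Dlx6 and Gsx2, which lay mostly at or under 3 counts or close to it.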

Other observations

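Neurog2, a proneural factor of excitatory lineages, rose from 0.220 to 3.88 CPM between 6 and 18 h in young cells (log2 fold change 4.17 ± 0.26). In old cells it was at 0.0848 CPM at 6 h and 2.12 CPM at 18 h. It passed the low-count filter there mainly through the 18 h libraries, where it is high, so no fold or test is given for that step. Neurog2 was lower in old than in young cells in edgeR's quasi-likelihood test, with a log2 fold change of -0.84 ± 0.17 at 18 h (adjusted p = 0.0174). The difference at 48 h was -1.22 ± 0.33 (adjusted p = 0.0476). Of 9 excitatory lineage genes 3 were tested between 6 and 18 h in young cells, and Neurog2 was the 1 called; 66.5% of all genes were called at this step. Between ages at 48 h 10.6% of all genes were called, and 2 of the 3 tested from this list, the other being Neurod1. Neurod1 was at 0.237 CPM in young and 0.0596 CPM in old cells. It was thus tested mainly because of the young libraries, where it is high, and its call supports nothing.

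Of 10 interneuron subtype genes, Htr3a, a serotonin receptor gene, rose from 1.74 to 15.2 CPM in the first 6 h in young cells (3.13 ± 0.29) and fell by 2.90 on the log2 scale between 18 and 48 h, to 2.19 CPM. Reln, which encodes the secreted protein reelin, fell by 1.21 between 6 and 18 h in young and by 1.19 in old cells. Calb2 (calretinin) fell by 1.26 and 1.22 over the same step. Of all genes tested in young cells, 74.9% were called in the first 6 h and 56.9% between 18 and 48 h. Between 6 and 18 h 66.5% were called in young and 67.7% in old cells. Others of the list were near 0: Sst, Vip and Cck averaged 0.00306, 0.00309 and 0.00274 CPM over all libraries, and Th 0.0115 CPM.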
